A study of Arabidopsis thaliana with 12 samples.

Results

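Whole seedlings of the Arabidopsis thaliana mutant pft1-1 were compared with wild-type (WT) seedlings, both grown at 16C. The comparison used the 3 arrays titled as the mutant and the 3 titled as WT at that temperature, 6 of the 12 arrays in the series. The other 6 hold the same genotypes at 23C and served as the reference for what differed between temperatures. All seedlings had the Columbia background and were 10 days old. They grew on agar with MS salts under continuous cool-white fluorescent light of 80 micromoles per second and square metre. The design thus differed between the mutant and WT at 16C by genotype alone, and between temperatures by 16C or 23C. Each group had 3 biological replicates, lettered A, B and C, with RNA prepared separately for each. A single mutant allele was used, so pft1-1 and any other difference between the lines cannot be told apart.

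PFT1 encodes MED25, a subunit of Mediator. Mediator is the large protein complex that passes signals from DNA-bound transcription factors to RNA polymerase II, and different factors contact different subunits. In Arabidopsis MED25 is known for its part in flowering, in responses to light quality and shade, and in the jasmonate response, where it is recruited by MYC and ERF factors to defence genes such as PDF1.2. PFT1 itself had no named probe set, so its own level was not analysed here and gave no check of the genotype labels.

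Array values are in log2 units, so a difference of 1 is a doubling of the signal. Values of about 2.5 and below lie at or below the lower quartile of all values (2.52) and carry little signal. Signals of different probe sets were not compared with each other. The tests covered 22746 probe sets, and "called" below means that limma's p, adjusted by Benjamini-Hochberg over all of them, was under 0.05. Seedling RNA is a mixture, and fewer cells of a type cannot be told apart from less RNA per cell.

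The arrays lettered C stood apart from the others technically. Their poly-A control probe sets averaged 5.46 and 8.72 in WT and pft1-1 at 16C, against 2.45 to 2.50 on the A and B arrays. Their 3-prime minus 5-prime control difference was 3.61 in WT and 3.52 in pft1-1, against 2.64 to 3.07 on the A and B arrays. Between the groups that measure differed by -0.22, pft1-1 minus WT (two-sided exact permutation p = 0.5, with 0.1 the smallest p that 3 against 3 arrays allow). Array medians lay between 5.20 and 5.25. The photosynthetic markers LHCB4.1 and RCA were at 13.90 to 14.64 on every 16C array, as leafy tissue would have. The root marker PYK10 was at 12.34 to 13.24. The root-hair expansin genes EXPA7 and EXPA18 varied by array rather than by genotype: EXPA7 read 5.42, 2.04 and 2.34 on WT arrays A, B and C, and 5.07, 4.65 and 2.24 on the pft1-1 arrays.

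At 16C few transcripts passed the test between the mutant and WT, whose variance was pooled over the 4 groups of both temperatures. Of the 22746 probe sets, 8 were called, which is 0.0352% of those tested; 4 rose and 4 fell in pft1-1. At an unadjusted p under 0.05, 576 were higher (2.53%) and 476 lower (2.09%). The called genes include a peroxidase, a fatty acid desaturase relative, a lipase relative and a pectate lyase relative, none of which belongs to the flowering or jasmonate lists. The annotation gives these genes as locus codes only. The families named below are general knowledge of those loci and not part of the annotation used.

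The largest called difference was that of probe set 255725_at, which carries no gene in the annotation and is left unnamed. It read 6.30, 6.47 and 6.31 on the 3 WT arrays and 10.10, 10.24 and 10.96 on the 3 pft1-1 arrays. Every mutant array lay more than 3 log2 units above every WT array. The difference was 4.07 (SE 0.22, limma adjusted p = 0.00039), a 16.8-fold higher signal. At 23C it read 6.84, 6.68 and 6.35 in WT and 10.28, 10.64 and 10.32 in pft1-1, a difference of 3.79 that was also called (adjusted p = 0.00073). Of the 8, it was the only one called on the A and B arrays alone, with a difference of 3.79 and an adjusted p of 0.037.

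AT1G49570, a member of the class III peroxidases that act on cell-wall polymers and hydrogen peroxide, rose in the mutant at 16C. It read 2.47, 2.28 and 2.27 in WT and 5.30, 4.27 and 4.35 in pft1-1. The WT arrays were all below the lower quartile of signals and the mutant arrays were all well above it. The difference was 2.30 (SE 0.23, limma adjusted p = 0.017). At 23C all 6 arrays read 2.27 to 2.30, so the gene stayed at background in both genotypes there. The difference between the temperatures was 2.30 (SE 0.32) and was not called (adjusted p = 0.237).

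AT5G52790, which encodes a protein with CBS domains, rose from a similar base. It read 2.08, 2.56 and 2.10 in WT and 3.29, 3.60 and 3.76 in pft1-1 at 16C, with no overlap. The difference was 1.31 (SE 0.14, limma adjusted p = 0.023). AT5G16230, a relative of the plastid desaturases that put a double bond into fatty acids bound to acyl carrier protein, read 2.49, 2.66 and 2.58 in WT and 3.10, 3.29 and 3.38 in pft1-1. Its groups also stood clear of each other, by 0.68 (SE 0.07, limma adjusted p = 0.023). At 23C the differences of both were 0.04 or less, near background.

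AT5G33370 had the largest drop among the called genes. It belongs to the GDSL lipases and esterases, a family known for work on surface lipids and cutin. The 16C values were 6.27, 6.30 and 5.57 in WT and 2.90, 3.37 and 2.53 in pft1-1, so that all mutant arrays were below all WT arrays. The difference was -3.11 (SE 0.34, limma adjusted p = 0.023), an 8.63-fold lower signal. At 23C WT itself was lower, at 2.96, 4.02 and 3.19, and pft1-1 read 1.76, 2.35 and 1.77. That difference of -1.43 also left no overlap but was not called (adjusted p = 0.353), and the temperatures were not shown to differ (adjusted p = 0.730).

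AT1G43590 fell at both temperatures. It read 4.70, 5.32 and 4.95 in WT and 2.60, 2.64 and 2.59 in pft1-1 at 16C, which differed by -2.38 (SE 0.21, limma adjusted p = 0.0098). Its mutant arrays were within 0.1 of one another and near background. At 23C WT read 5.50, 5.56 and 6.15 and pft1-1 3.20, 2.67 and 2.86, a difference of -2.83 (adjusted p = 0.0034).

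AT5G55720, of the pectate lyase family that cuts the pectin of cell walls, fell as well. It read 3.99, 4.40 and 4.24 in WT and 2.51, 2.77 and 2.82 in pft1-1 at 16C. The groups were more than 1 log2 unit apart and differed by -1.51 (SE 0.12, limma adjusted p = 0.0043). At 23C the difference was -0.32, again without overlap and not called (adjusted p = 0.583). AT4G15120, which encodes a VQ-motif protein of a family that partners WRKY factors, had the smallest called change. It read 2.70, 2.66 and 2.79 in WT and 2.28, 2.37 and 2.38 in pft1-1, which differed by -0.37 (SE 0.05, limma adjusted p = 0.045). All its values lie close to the background of the arrays.

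Of the 8, 2 were also called at 23C (255725_at and AT1G43590), where 5 probe sets were called in all (0.022% of those tested). Another 2, AT5G33370 and AT5G55720, did not overlap at 23C in the same direction. Of all probe sets, 4.2% were higher and 3.75% lower without overlap at 23C. The calls rest on a variance shared with the 23C arrays, so the SEs do not measure the spread at 16C alone. AT1G49570 had SDs of 0.11 in WT and 0.57 in pft1-1 at 16C, but 0.006 and 0.015 at background at 23C. The glucosinolate gene BCAT4 went the other way, with SDs of 0.22 and 0.21 at 16C and an SE of 0.88. Fitted on the 6 arrays at 16C alone, 0 probe sets were called and 1429 had an unadjusted p under 0.05. The 8 then had limma adjusted p values of 0.194 to 0.344. Leaving out each of the 12 arrays in turn kept the calls of 255725_at, AT1G43590 and AT5G55720 every time. AT5G33370, AT5G52790 and AT1G49570 each lost theirs without 6 of the arrays, AT5G16230 without 7 and AT4G15120 without 10, at adjusted p values of up to 0.123. With the C arrays as a block all 8 stayed called, and with all 3 letters as a block 5 did, while AT5G52790, AT1G43590 and AT4G15120 had limma adjusted p values of 0.055, 0.055 and 0.070. The number of calls at 16C was 3 without WT 23C array C or pft1-1 23C array A or B, and 42 without pft1-1 16C array C. On the A and B arrays alone the difference of each of the 7 other than 255725_at kept its direction (from -3.15 for AT5G33370 to 2.41 for AT1G49570) at adjusted p values of 0.147 to 0.287.

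**Figure D1:**
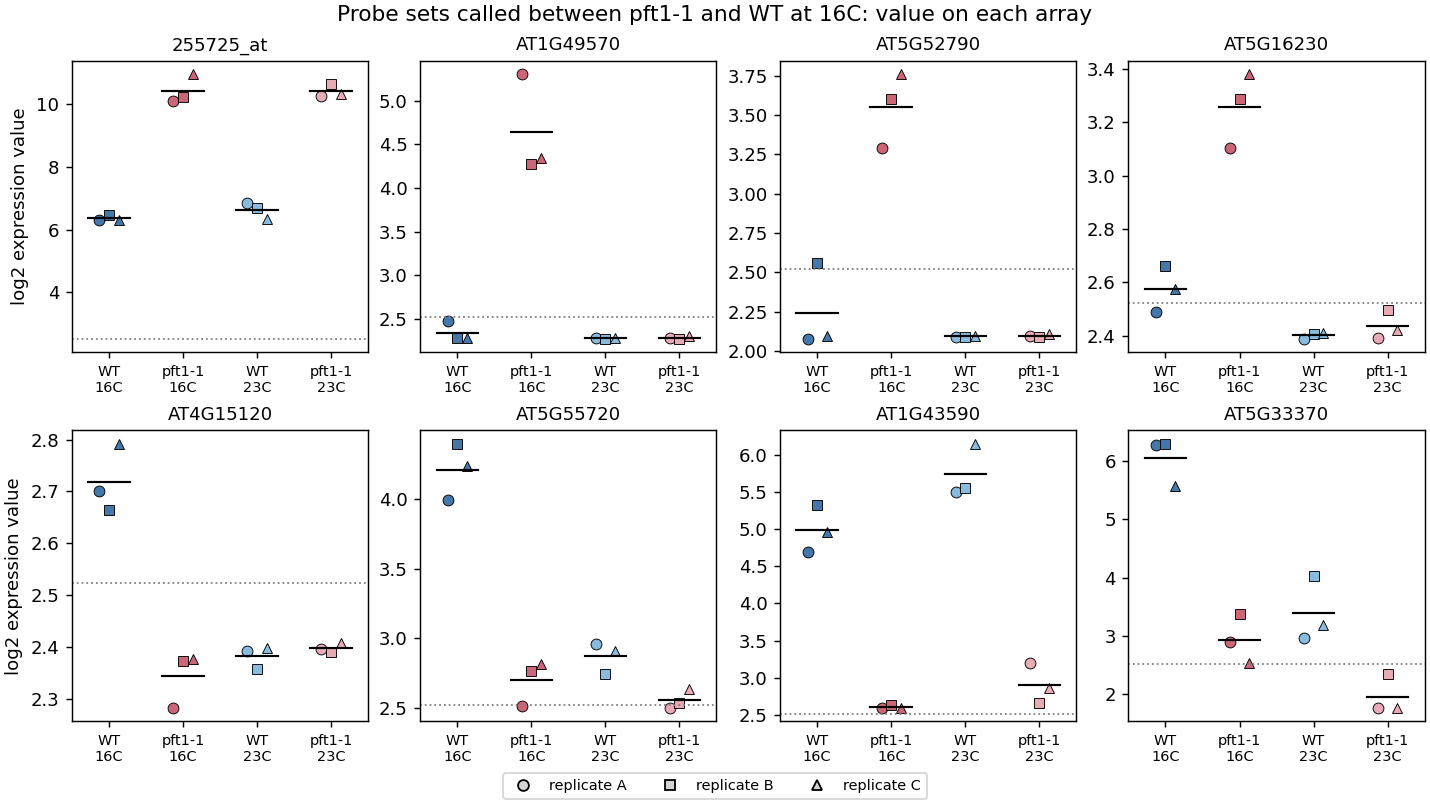
The log2 value of each of the 8 called probe sets is drawn for every array, with 1 panel per probe set and its own y axis, the 4 groups on the x axis and the marker shape giving the replicate letter. The dotted line is the lower quartile of all values (2.52). In every panel the 3 pft1-1 and the 3 WT arrays at 16C do not overlap. 255725_at, AT1G43590, AT5G33370 and AT5G55720 also have no overlap at 23C, in the same direction, while AT1G49570 is at background in all 6 arrays there.

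Beyond the called probe sets, the genes with the largest differences were taken from 295 probe sets (150 higher and 145 lower in pft1-1) that carry 1 gene, had no overlap at 16C, an unadjusted p under 0.05 and a mean of at least 5 in the higher group. These values chose the genes and are given as a description. The 12 lowest ran from -3.68 to -1.51 and the 12 highest from 1.51 to 2.39. AT5G33370 was the 1 called gene among the 24, and the adjusted p values of the other 23 ran from 0.053 upwards.

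The lowest of all was AT5G64120, annotated as the peroxidase PRX71. It read 9.42, 6.65 and 7.46 in WT and 4.78, 3.95 and 3.76 in pft1-1 at 16C. The WT arrays spread over more than 2 log2 units, yet the lowest of them was above the highest mutant array. The difference was -3.68 (SE 0.72, limma adjusted p = 0.262). At 23C it was -2.65, from 9.34, 8.47 and 7.30 in WT to 6.07, 5.76 and 5.32 in pft1-1 (adjusted p = 0.428).

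Among the 12 lowest and 12 highest genes that were not called, AT4G01390 and AT3G22540 came closest to a call. AT4G01390 read 7.50, 8.32 and 8.15 in WT and 5.55, 4.81 and 4.73 in pft1-1, which differed by -2.96 (SE 0.40, limma adjusted p = 0.060). AT3G22540 read 5.92, 6.19 and 6.45 in WT and 4.34, 4.22 and 4.36 in pft1-1, which differed by -1.88 (SE 0.24, limma adjusted p = 0.053). Both had the same sign without overlap at 23C, by -1.49 and -1.81.

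AT4G12490, of the family of lipid-transfer-like proteins that includes AZI1, read 5.91, 5.38 and 5.44 in WT and 2.90, 2.06 and 3.06 in pft1-1. Its difference was -2.90 at 16C and -2.82 at 23C (limma adjusted p = 0.387 and 0.347). AT1G31690, a copper amine oxidase, differed by -1.87 and -1.74 at the 2 temperatures. AT4G11210, a dirigent protein of the kind that guides lignan coupling, read 5.94, 6.2 and 5.84 in WT and 4.83, 4.68 and 3.62 in pft1-1, by -1.62 at 16C against -0.10 at 23C.

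Other low genes had the opposite sign at 23C. HIS1-3, a linker histone known for induction by drought, read 6.34, 5.35 and 5.20 in WT and 3.73, 4.65 and 3.87 in pft1-1 at 16C (-1.54), and the mutant mean was higher by 1.15 at 23C. The glycine-rich protein gene AT2G05540 differed by -2.17 at 16C and 0.88 at 23C. Neither temperature difference was called (limma adjusted p = 0.648 and 0.730). AT2G07722 (-1.96) and AT2G07741 (-1.51) were each read by a probe set that can bind related transcripts, and they lie on chromosome 2, which carries a near-copy of mitochondrial DNA, so their source is uncertain.

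PDF1.2, the antifungal defensin used as a marker of the jasmonate and ethylene defence branch, read 6.25, 4.82 and 4.58 in WT and 3.72, 3.68 and 3.69 in pft1-1 at 16C. The mutant arrays were nearly equal and below all WT arrays. The difference was -1.52 (SE 0.63) and did not pass the test (limma adjusted p = 1.0, unadjusted p = 0.039). Its close relative PDF1.2b read 6.54, 5.01 and 4.93 in WT and 2.96, 4.04 and 5.06 in pft1-1, where mutant array C was above 2 of the WT arrays (-1.48, SE 0.71). The probe set of PDF1.2b can bind related transcripts, so these 2 readings may share signal.

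At 23C both defensins had higher WT values and fell in pft1-1. PDF1.2 read 8.0, 10.00 and 10.23 in WT and 4.23, 3.08 and 4.01 in pft1-1, a difference of -5.64 (limma adjusted p = 0.040). PDF1.2b differed by -6.92 (limma adjusted p = 0.031). The differences at 16C were thus smaller by 4.11 and 5.45, but the test between temperatures did not pass (adjusted p = 0.516 and 0.368).

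Among the highest genes, COR15A had the largest difference. It encodes a cold-induced protein of the chloroplast stroma that shields membranes from freezing. COR15A read 5.14, 5.67 and 6.34 in WT and 9.28, 7.48 and 7.54 in pft1-1 at 16C. All mutant arrays were above all WT arrays, with array A far above the other two. The difference was 2.39 (SE 0.61) and did not pass the test (limma adjusted p = 0.501). At 23C it was 0.39.

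SWEET13, a sucrose exporter that feeds the phloem, read 3.51, 3.5 and 3.28 in WT and 6.30, 5.14 and 4.74 in pft1-1. The WT arrays were tight and the lowest mutant array was over 1 log2 unit above them. The difference was 1.97 (SE 0.34, limma adjusted p = 0.147), the lowest adjusted p among the 12 highest genes. At 23C it was -0.04. XTH20, a xyloglucan endotransglucosylase that remodels cell walls, read 4.24, 3.95 and 3.63 in WT and 6.58, 5.60 and 4.71 in pft1-1 (1.69, SE 0.40, limma adjusted p = 0.411). It was -0.01 apart at 23C, near background.

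ChiC, a chitinase of the kind that cuts fungal cell walls, read 4.86, 4.93 and 4.19 in WT and 7.35, 6.69 and 6.13 in pft1-1 (2.06, SE 0.48, limma adjusted p = 0.408). AT2G43590, a chitinase relative, read 9.11, 8.09 and 7.58 in WT and 10.39, 9.23 and 10.55 in pft1-1 (1.80, SE 0.52, limma adjusted p = 0.641). Neither passed the test, and both had the opposite sign at 23C, by -1.28 and -3.59.

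The other high genes were AT3G54040 (2.12), AT2G15220, of the basic secretory proteins (2.10), the amino acid transporter gene AT2G39130 (1.61), the peroxidase gene AT4G08780 (1.6), AT3G15650 (1.54), AT1G80130 (1.54) and the glutathione S-transferase gene GSTU22 (1.51). AT2G15220 read 3.97, 4.0 and 3.98 in WT and 6.83, 5.29 and 6.13 in pft1-1, so the WT arrays agreed within 0.1 and the mutant arrays did not. AT4G08780 was at 2.48 to 2.54 on all 23C arrays.

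**Figure D2:**
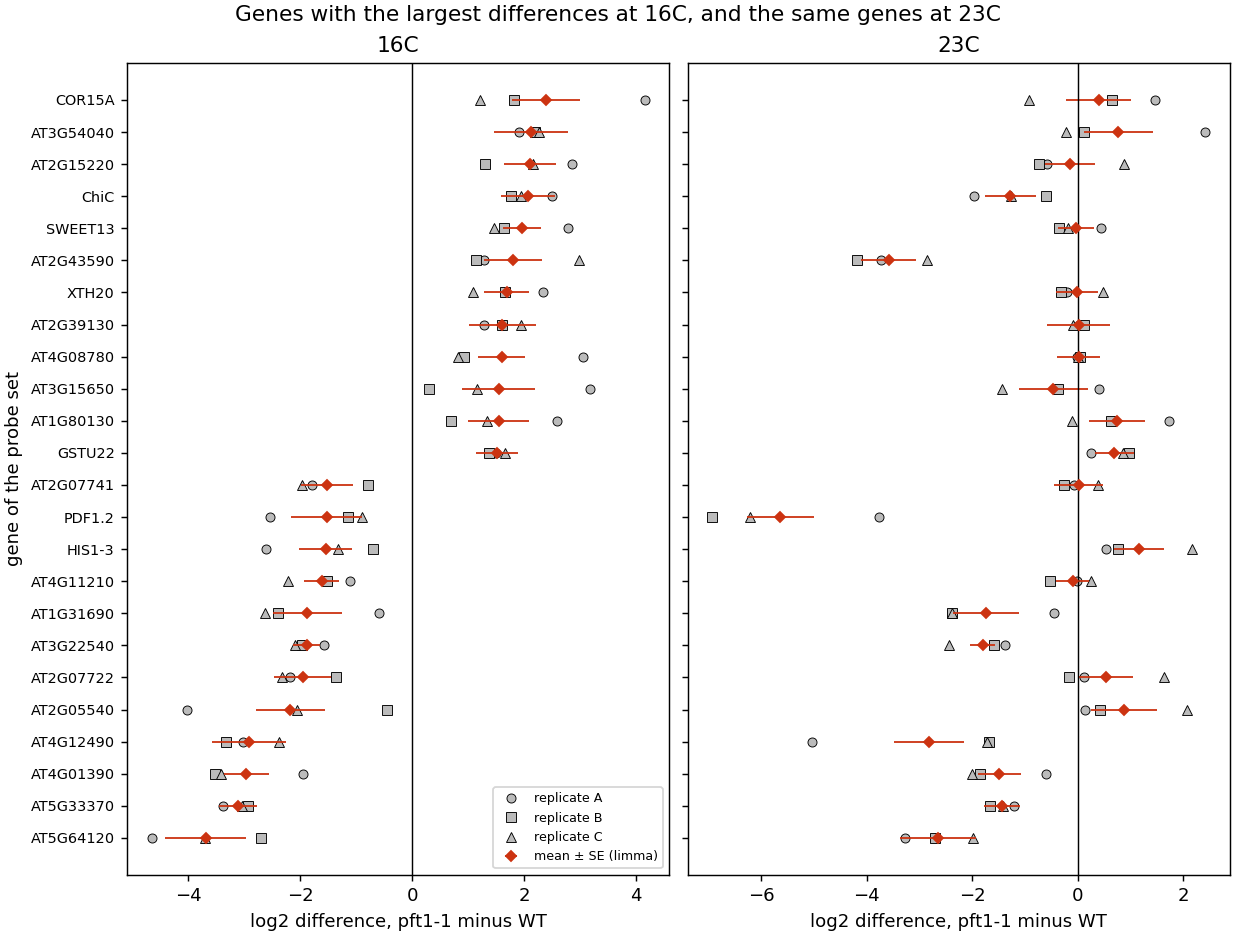
The log2 difference, pft1-1 minus WT, is drawn for the 12 highest and 12 lowest genes at 16C (left) and for the same genes at 23C (right). Grey markers are the differences within each replicate letter and red diamonds the mean with its limma SE. At 16C the means run from -3.68 to 2.39 because the genes were chosen there; at 23C, 8 of the 12 lowest genes and 6 of the 12 highest keep their sign.

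At 23C, 8 of the 12 lowest kept a negative sign and 7 of them had no overlap between the groups. Of the 12 highest, 6 kept a positive sign and 1, GSTU22, had no overlap (4.08, 3.21 and 3.41 in WT against 4.33, 4.18 and 4.26 in pft1-1). For comparison, 4.2% of all probe sets were higher without overlap at 23C and 3.75% were lower. The 16C and 23C values come from different arrays, but the unadjusted p of the filter used a variance pooled over both temperatures. Genes with little spread at 23C were thus favoured, so the counts at 23C are no independent check. Over all probe sets the differences at the 2 temperatures had a Pearson r of 0.070, a description across 22746 probe sets measured on the same array type that are not independent. The test of the difference between temperatures called 0 probe sets (lowest limma adjusted p 0.237), with 1259 at an unadjusted p under 0.05. Differences of at least 1 log2 unit numbered 299 at 16C and 505 at 23C.

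**Figure D3:**
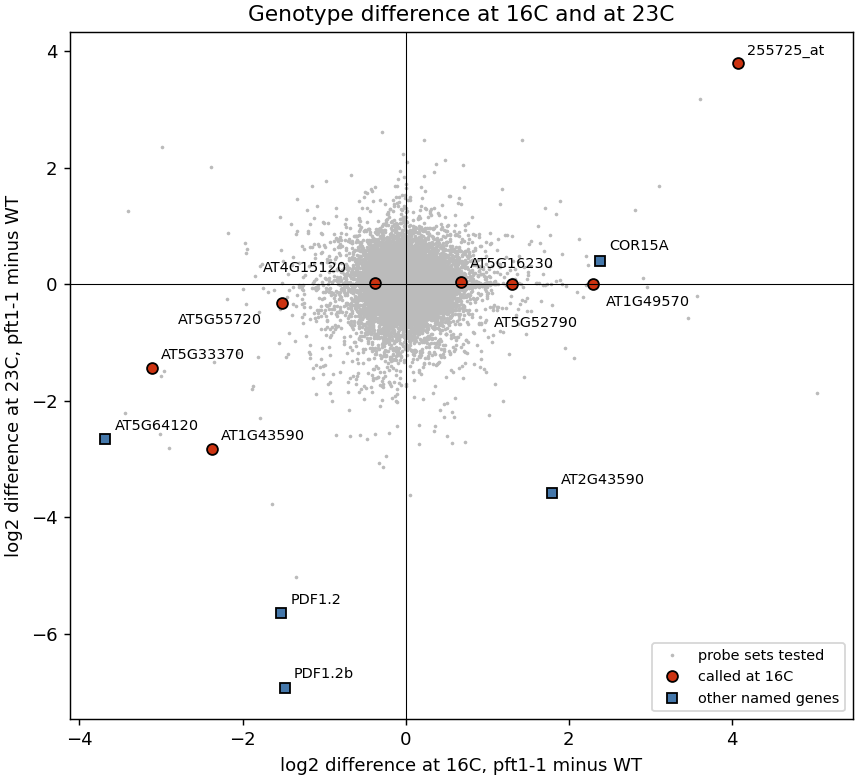
Each point is a probe set, with its log2 difference, pft1-1 minus WT, at 16C on the x axis and at 23C on the y axis. Red circles are the 8 probe sets called at 16C and blue squares other named genes. 255725_at and AT1G43590 lie far from 0 on both axes, PDF1.2 and PDF1.2b are much lower at 23C, and AT2G43590 is positive at 16C and negative at 23C.

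Groups of genes were then read by their role, each beside the median difference of all probe sets at 16C, -0.01. The flowering list had 5 of its 14 members measured, and none passed the test at an unadjusted p under 0.05. GI, which links the clock to the flowering promoter CONSTANS, read 7.33, 7.43 and 7.61 in WT and 6.91, 7.56 and 7.71 in pft1-1, with a difference of -0.06 (SE 0.24) that turned positive without pft1-1 array A (0.18) or WT array C. The floral repressors SMZ and SNZ differed by -0.11 and -0.26. AGL24 and FD were near background at 2.02 to 2.27 on every 16C array.

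The other Mediator subunits gave no call. MED31 differed by -0.08, MED19A by 0.13, MED9 by 0.11, MED6 by -0.02 and AT2G22370, annotated as MED18, by 0.20. All 5 had overlapping groups and their SEs were 0.11 to 0.32. The signs of MED31, MED19A and MED6 changed when single arrays were left out.

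In the jasmonate and ethylene defence list, 4 of 9 members were measured, with 0 called and 1, PDF1.2, lower at an unadjusted p under 0.05. OSM34, an osmotin-like defence protein, differed by 0.65 and the defensin LCR67 by 0.46, so that the 4 members had signs in both directions. The 13 defensin-like genes had a median of -0.03, and 5 were near background. The lists for jasmonate synthesis and salicylate defence had 0 measured members. Of the WRKY factors, which regulate defence genes, 7 were measured between -0.37 and 0.31 with none at an unadjusted p under 0.05.

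In the cold list, COR15A (2.39) stood alone among 4 measured members of 12. COR15B read 7.09, 7.86 and 8.76 in WT and 8.97, 8.24 and 8.21 in pft1-1, overlapping at a difference of 0.57. COR47 and LTI30, both dehydrins, differed by -0.20 and -0.25. The anthocyanin genes DFR and UF3GT differed by 0.37 and -0.11, with a wide spread in both directions over the mutant arrays. DFR read 7.72, 7.21 and 7.23 in WT and 9.77, 7.32 and 6.17 in pft1-1. UF3GT read 6.76, 6.47 and 6.67 in WT and 8.54, 6.14 and 4.88 in pft1-1. For both, mutant array A was above all WT arrays and mutant array C below all of them. In the glucosinolate list, 3 of 10 members were measured and none passed the test at 16C, at 23C or between the temperatures. GSTU20 differed by 1.1 at 16C and -1.72 at 23C, UGT74B1 by 0.29 and -1.35, and BCAT4 by 0.05 (SE 0.88) and -3.62. The iron-deficiency factors BHLH101 and PYE differed by -0.82 and -0.20 with overlapping groups.

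The glutathione S-transferases, which join glutathione to reactive compounds, leaned to the positive side at 16C. Of 14 measured genes 10 were positive and 4 negative, with a median of 0.47 against -0.01 for all probe sets. None was called, 3 were higher at an unadjusted p under 0.05, and 4 were above WT without overlap, where 4.31% of all probe sets were. GSTU22 read 7.17, 6.08 and 6.27 in WT and 8.67, 7.45 and 7.93 in pft1-1 (1.51, limma adjusted p = 0.449). GSTU25 differed by 1.35 and ATGSTF13 by 1.1.

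The mean over the 14 genes was 6.16, 5.89 and 5.90 on the WT arrays and 6.83, 6.6 and 6.22 on the pft1-1 arrays at 16C. The mutant arrays were all above the WT arrays, by least on array C. By letter the median differences were 0.66, 0.65 and 0.01 for A, B and C, and 0.71 on the A and B arrays alone. On the same arrays the 3 measured root markers averaged 8.02, 6.19 and 6.16 in WT and 7.95, 7.49 and 5.66 in pft1-1, and within each genotype array A was highest for both. The part of root content in the transferase values was not tested. The median of the transferases was 0.24 without pft1-1 array A and 0.77 without pft1-1 array C. At 23C it was 0.01.

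The cell-wall groups held single genes with large values in both directions. Of 6 class III peroxidases annotated by symbol or synonym, PRX71 was at -3.68, while AT2G41480, annotated as PRX25, read 4.11, 3.36 and 3.59 in WT and 4.45, 5.56 and 5.55 in pft1-1 (1.5, limma adjusted p = 0.387). The median of the 6 was 0.33, with 4 positive, and 2 were near background. The median of the xyloglucan endotransglucosylases was 0.09 over 10 genes, with XTH20 at 1.69 and XTH16 at -0.85. The 17 expansins, which loosen walls, had a median of 0.10. EXPB2 (0.80) and EXLA2 (0.44) were higher at an unadjusted p under 0.05, though EXPB2 was at background on mutant array C (2.14). Beside these wall genes the 3 measured root markers ranged over the 16C arrays from a mean of 6.16 to 8.02 in WT and from 5.66 to 7.95 in pft1-1. The part of root content in the wall genes was not tested.

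Tubulins, the subunits of microtubules, were positive in 6 of 7 genes, with a median of 0.26. TUB5 read 10.11, 10.25 and 9.96 in WT and 10.74, 10.61 and 10.45 in pft1-1, without overlap (0.49, SE 0.16, limma adjusted p = 0.769). TUB9 and TUA6 had no overlap either, at 0.26 and 0.28, which makes 3 of 7 higher without overlap where 4.31% of all probe sets were. Tubulin group means were 7.29 to 11.64, and in the third of all probe sets with the highest means 479 of 7582 were higher without overlap. Leaving out each array of the lower temperature in turn gave medians of 0.19 to 0.37 with 6 of 7 positive each time. Arrays of the higher temperature do not enter these differences, so leaving them out could not change the medians.

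The large metabolic families showed no common direction. The UDP-glycosyltransferases, which attach sugars to hormones and metabolites, had a median of -0.01 over 51 genes. UGT76B1, which acts on isoleucic and salicylic acid, was at 0.98, and UGT84A1, UGT85A4 and UGT74F1 were at -0.74, -0.63 and -0.27, each at an unadjusted p under 0.05 and none called. The groups of UGT85A4 and UGT74F1 overlapped. UGT74F1 was near background, at 2.53 to 3.03 in WT and 2.51 to 2.54 in pft1-1, as was UGT84A1 in pft1-1 at 2.71 to 2.87. The 23 cytochrome P450s had a median near 0 and none at an unadjusted p under 0.05. The 22 beta-glucosidases had a median of -0.02, with BGLU45 (-0.60) lower at an unadjusted p under 0.05. Its mutant arrays were near background, at 2.63 to 2.69.

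**Figure D4:**
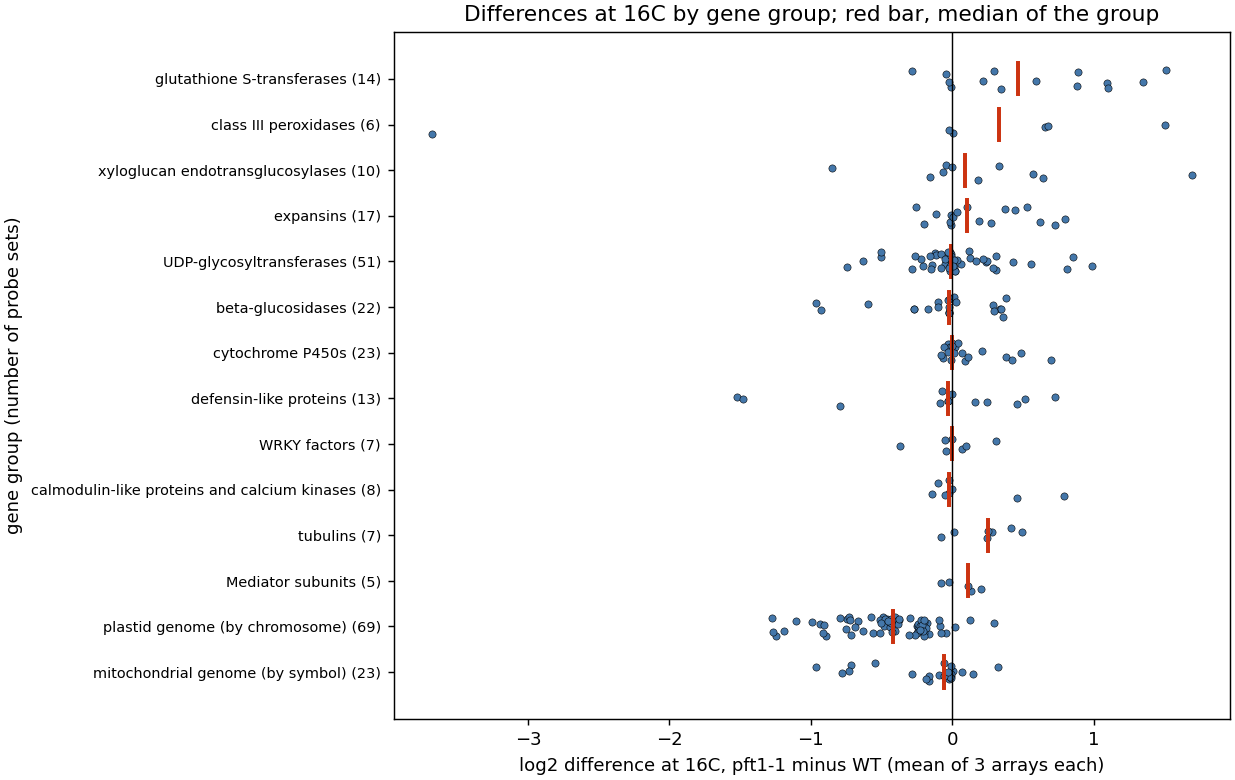
Each point is a probe set of the gene group named on the y axis, with its log2 difference at 16C, pft1-1 minus WT, on the x axis. The red bar is the median of the group. The class III peroxidases shown are those matched by symbol or synonym, without AT1G49570 and AT4G08780. Plastid-genome genes lie mostly below 0 (median -0.42), glutathione S-transferases mostly above it (median 0.47), and most other groups are centred near 0 with single distant genes such as PRX71 at -3.68.

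Transcripts of the plastid genome, which codes for core parts of photosynthesis and its own expression, mostly had lower group means in the mutant. That direction depended on mutant array A, as given below. The probe sets share the same arrays and are not replicates of the comparison. Of 69 probe sets on the plastid chromosome 66 were negative, with a median of -0.42, while 0 were called and 6 were lower at an unadjusted p under 0.05. The groups did not overlap for 11 of them, all lower, where 8.53% of all probe sets were. That share is raised by dim probe sets, while the plastid group means were 6.83 to 14.68. In the third of all probe sets with the highest means, 415 of 7582 were lower without overlap. rps14, a ribosomal protein gene, read 9.81, 10.06 and 9.82 in WT and 8.38, 9.10 and 8.39 in pft1-1 (-1.27, SE 0.31, limma adjusted p = 0.449).

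The mean over the 69 probe sets was 10.82, 11.44 and 11.75 on WT arrays A, B and C and 9.94, 11.01 and 11.68 on the pft1-1 arrays. WT array A thus lay below mutant arrays B and C. In both genotypes array A was lowest and array C, with the larger 3-prime minus 5-prime control difference, was highest. The part of array quality in the plastid values was not tested. By letter the median difference was -0.84 for A, -0.38 for B and 0.02 for C, though arrays of the same letter were not taken as pairs. On the A and B arrays alone it was -0.59, with all 69 negative. Without pft1-1 array A it was 0.09, with 27 negative, so that the sign turned; that setting sets WT arrays A, B and C against mutant arrays B and C, with A the lowest WT array.

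By function, the 20 photosystem genes were all negative with a median of -0.40, as were the 10 ndh genes of the NDH complex (-0.46). The 12 genes of ATP synthase and the cytochrome complex had a median of -0.53 and the 4 RNA polymerase genes one of -0.52. The 15 ribosomal protein genes were negative in 12 cases, with a median of -0.27. At 23C the median of the whole set was -0.14. The 23 mitochondrial probe sets had a median of -0.06 at 16C, with 19 negative and 9 near background. Their median at 23C was 0.26. Nuclear genes of the light-harvesting antenna, LHCB4.1, LHCB4.2 and LHCB4.3, differed by -0.07, -0.02 and -0.21.

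Across all probe sets, groups of 3 arrays that did not overlap were lower in pft1-1 more often than higher. At 16C, 1940 were lower (8.53%) and 980 higher (4.31%), so that 66.4% of these were lower. The excess lay among dim probe sets. When the probe sets were divided by their mean into 3 equal bins, the dimmest (means 1.75 to 3.0) held 1015 lower and 78 higher, 92.9% lower. The median difference there was only -0.01, and the median SD over the 3 arrays was 0.022 in WT and 0.012 in pft1-1.

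Among brighter probe sets the directions were nearly even. The middle bin held 510 lower and 423 higher (54.7% lower), and the brightest bin 415 lower and 479 higher (46.4% lower). With the values quantile-normalised again the share of lower ones was 60.1%, and with each array centred on its median it was 69.7%. At 23C the counts were 853 lower and 955 higher. At both temperatures, 152 probe sets had no overlap in the same direction and 110 in opposite directions.

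**Figure D5:**
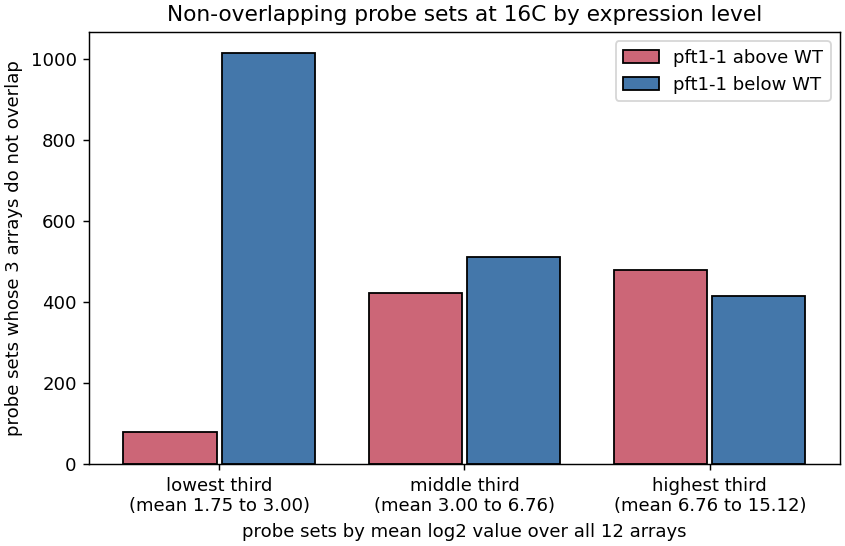
The bars count probe sets whose 3 pft1-1 and 3 WT arrays at 16C do not overlap, separately for pft1-1 above and below WT, in 3 equal bins of mean log2 value. The dimmest bin has 1015 below against 78 above, and the other 2 bins have nearly equal bars (510 against 423, and 415 against 479).

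The replicate letters gave only partly the same differences. Across all probe sets the pft1-1 minus WT differences at 16C had a Pearson r of 0.21 between letters A and B, 0.27 between A and C and 0.20 between B and C. These are descriptions over 22746 probe sets that share arrays and normalization. The median SD over the 3 arrays was 0.163 in WT and 0.167 in pft1-1.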

How the data were processed

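Total RNA of whole seedlings, 5 ug per sample, was labelled with biotin and hybridised to 12 one-colour arrays. The authors deposited log2 values, 1 per probe set and array. RMA and affy are named, with no version, in the submitters' processing notes, and raw scans were not used here. Of 22810 probe sets, 64 controls served as quality measures and 22746 were tested unfiltered. limma 3.58.1 in R 4.3.3 fitted the means of the 4 groups to all 12 arrays (8 residual and 1.05 prior degrees of freedom), and p-values were Benjamini-Hochberg adjusted over all 22746. On data simulated for the 16C comparison, 97 of 100 probe sets changed by 3 log2 units and 44 of 100 changed by 1 were called, with 15 unchanged ones called among 22746 probe sets. The simulation used independent, normal values with the same SD in all 4 groups, and drew the changed probe sets from all levels, dim ones included. Real arrays did not have equal SDs in the 4 groups, so these rates are not the power of the real comparison. The number of arrays limits the precision.

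Names came from the supplied annotation: 13513 probe sets had 1 gene, 503 several and 8730 none. Members, 16 gene lists and 25 families were chosen with earlier results of these data known. Of 141 list members 25 were measured, 6 were dropped for a symbol that did not match the locus, and 8 lists and 8 families had none. The Mediator and defensin patterns were corrected for symbols of other genes, and the 2 organelle sets were added, after the annotation and values were seen. Named were the called probe sets, the 12 highest and 12 lowest genes that met the filter given above, PDF1.2, PDF1.2b, GI and Mediator subunits, and up to 4 members per list or family at an unadjusted p under 0.05. Group members outside that rule were named after their values were seen. Alternatives changed the arrays, the replicate block, the variance model, the filter and the scaling.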

Additional observations from a re-analysis of the deposited data

Results flagged for a closer look

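AT2G43590, a chitinase relative, differed between pft1-1 and WT in opposite directions at the 2 temperatures, with no overlap of the groups at either. At 16C it read 9.11, 8.09 and 7.58 in WT and 10.39, 9.23 and 10.55 in pft1-1, and at 23C it read 6.14, 7.29 and 5.84 in WT and 2.42, 3.11 and 2.99 in pft1-1. The 16C difference exceeded the 23C difference by 5.38 (SE 0.74), which did not pass the test over all probe sets (limma adjusted p = 0.237, unadjusted p = 4.51e-05). The gene was picked among the 50 named probe sets after its values were seen.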

How the results depend on the processing

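The count of 8 calls at 16C became 216 with array weights (whose estimation stopped before its tolerance was met), 15 with an intensity trend, 14 with median centring, 5 with the replicate block, 1 on the A and B arrays, and 0 on the 6 arrays at 16C without or with the replicate block (1429 and 2007 at an unadjusted p under 0.05). It was 12 with letter C as a block, 10 after renewed quantile normalization and 9 over the 13648 brightest probe sets, which hold 2 of the 8. Leaving out 1 array gave 3 to 42: 3 without WT 23C array C or pft1-1 23C array A or B, 4 without WT 23C array B, and 23, 30 and 42 without pft1-1 16C array A, B and C. The 5 calls at 23C became 8 with a trend, 9 with median centring, 13 over the brightest probe sets, 2 with letter C as a block, 2 on the A and B arrays, 0 on the 23C arrays alone without or with the replicate block, and 2 to 54 with 1 array left out (20 without WT 23C array A, 54 without pft1-1 23C array B). The test between temperatures gave 0 calls in each of the other settings it could be run in and 0 to 6 with 1 array left out (6 without pft1-1 16C array A or pft1-1 23C array B). Same-lettered arrays correlated in their deviations by 0.357, -0.101 and 0.474 at 16C and by 0.129, 0.473 and 0.158 at 23C. The letters were not taken as pairs in the main fit because the labels give the RNA as prepared independently. All 50 named probe sets kept their direction on the A and B arrays alone, after renewed quantile normalization and after median centring, which shifts every difference alike. With array weights 49 did, and 48 to 50 did with 1 array at 16C left out. The trend, block and single-temperature fits do not alter a 16C difference, so direction could not change in them. The same holds for the filter, which kept 33, and for leaving out a 23C array. With 1 array left out, GI ran from -0.22 to 0.18, MED31 from -0.16 to 0.064, MED19A from -0.00025 to 0.23 and MED6 from -0.12 to 0.094, and MED6 was 0.098 with array weights. The cause of these changes was not tested. Signals at background limit what can be read of low genes.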

Other observations

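Several probe sets that the annotation ties to no gene had larger differences at 16C than most named genes. They were chosen after their values were seen. Probe set 256766_at read 5.70, 5.72 and 4.83 in WT and 10.80, 9.75 and 10.84 in pft1-1, which differed by 5.05 (SE 1.12, limma adjusted p = 0.376), against -1.87 at 23C. Its groups were far apart at 16C and overlapped at 23C.

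Probe sets 259813_at, 248048_at and 248978_at had a common profile over the arrays. 259813_at read 3.87, 4.90 and 4.28 in WT and 9.13, 7.19 and 7.46 in pft1-1, which differed by 3.58 (SE 0.47, limma adjusted p = 0.053). 248048_at and 248978_at differed by 3.46 and 2.97. All 3 were highest on pft1-1 array A and differed by -0.21, -0.58 and -0.05 at 23C.

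On the lower side, 266383_at read 8.0, 8.38 and 6.96 in WT and 3.97, 4.05 and 4.97 in pft1-1, which differed by -3.45 (SE 0.50, limma adjusted p = 0.082). It had no overlap at 23C either, at -2.20. 256601_s_at differed by -3.01 at 16C and -2.57 at 23C, with differences by letter of -3.0, -3.07 and -2.98 at 16C. 252415_at differed by -2.99 at 16C and 2.36 at 23C, where the groups overlapped.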
